A study of Mus musculus with 5 samples.

Results

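Iron handling and ferroptosis were followed through 10 genes: the ferritin subunits Fth1 and Ftl1, the ferritin receptor Ncoa4, the iron importers Tfrc and Slc11a2, the iron exporter Slc40a1, the iron regulatory proteins Aco1 and Ireb2, the cystine transporter subunit Slc7a11 and the lipid enzyme Acsl4. These were the rows of the 5 transcript abundance tables that carried those gene names, 10 of 46078 genes. No measured value entered that rule, although earlier results of these data were known when the genes were chosen. The cells were neural precursor cells (NPCs) from the subventricular zone of adult C57BL/6 mice, labelled as female, 5 to 8 weeks old and without mutation, although the methods give an older age in months. They were expanded as spheres, plated on poly-D-lysine and given a sham exposure to phosphate-buffered saline (PBS). RNA was collected after 1 h (n = 2, replicates 1 and 2) or 8 h (n = 3, replicates 13, 14 and 15). No cells labelled as exposed to an agent were analysed here, so by label the groups compared differ in time after sham exposure. The libraries also differed in other ways, given below. The methods count each animal as a biological replicate of such cells, but the labels tie no library to an animal, so p-values may measure only the spread between these libraries.

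Cells take up iron bound to transferrin through the transferrin receptor, move it into the cytosol through a divalent metal transporter, store it inside ferritin and release it through ferroportin. The iron regulatory proteins bind a short hairpin in messenger RNA, the iron-responsive element (IRE), when iron is scarce. Bound near the start of a message the hairpin blocks translation, and bound in the trailing region it protects the message from decay, so a change in iron can alter ferritin protein without altering ferritin mRNA. Ferroptosis is an iron-dependent death in which membrane lipids are peroxidised. It is held back by cystine uptake, glutathione and Gpx4, and is favoured by Acsl4, which loads polyunsaturated fatty acids into phospholipids.

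IREs are the known control sites of several of these genes, and they were located in the annotated transcripts of GRCm38 (GENCODE vM21). The search asked for C, 5 bases, CAGTGN and 5 bases that pair with the first 5, on the transcript strand only, with G-T pairs allowed. Of 21901 protein coding genes, 0.142% had a match in a 5′ untranslated region (UTR) and 0.589% in a 3′ UTR. Matches were found in 4 of the 10 genes. The capitals mark the bulged C and the 6-base loop of the hairpin.
Fth1, 5′ UTR, chr19:9982733-9982759, plus strand: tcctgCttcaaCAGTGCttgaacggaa
Ftl1, 5′ UTR, chr7:45459780-45459806, minus strand: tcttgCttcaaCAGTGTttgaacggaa
Slc40a1, 5′ UTR, chr1:45925466-45925492, minus strand: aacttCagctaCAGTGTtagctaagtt
Tfrc, 3′ UTR, chr16:32631220-32631246, plus strand: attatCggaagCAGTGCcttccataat
Tfrc, 3′ UTR, chr16:32631599-32631625, plus strand: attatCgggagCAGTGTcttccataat
Tfrc, 3′ UTR, chr16:32631664-32631690, plus strand: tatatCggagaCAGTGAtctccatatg
Tfrc, 3′ UTR, chr16:32631711-32631737, plus strand: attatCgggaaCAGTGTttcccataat

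Both ferritin messages carried a single match near their start, as did Slc40a1, whereas Tfrc carried 4 matches in its trailing region. A match is a description of the letters and not a measurement of binding. The other 6 genes held no match to these letters in the annotated UTRs. The search asked for an unbroken stem above the bulged C and for a fixed loop, so an IRE of another shape would be missed. A gene without a match, such as Slc11a2, may therefore still hold an IRE, and Tfrc may hold more than those listed. Protein amounts, translation and iron itself were not measured.

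Libraries differed in ways other than time. The sample identifiers fall into series 1 (both 1 h libraries and 8 h replicate 14) and series 2 (8 h replicates 13 and 15). The summed level of 4 Y-linked genes was 138 to 181 TPM (transcripts scaled to a fixed total in each library) in series 1 and at most 0.0253 TPM in series 2, while Xist was at most 0.0611 TPM in series 1 and 165 and 200 TPM in series 2, so the 3 libraries of series 1 went against the female label. Mitochondrial transcripts made up 10.7 to 11.1% of TPM in series 1 and 6.23 and 6.30% in series 2, and the proliferation genes (5 of 5 detected) summed to 578 to 634 TPM in series 1 and to 1143 and 1223 TPM in series 2. All libraries had 13681 to 13967 genes at 1 TPM or more. All 7 neural stem and precursor markers were detected, with sums of 10870 to 13778 TPM. Of 8 oligodendrocyte lineage markers, 7 had a mean of at least 1 TPM, and all 8 together summed to 1605 to 2449 TPM. Microglial markers (0 of 6 at a mean of 1 TPM) summed to at most 1.49 TPM, with Tmem119 and Aif1 at 0. Erythroid markers (0 of 6) summed to at most 1.37 TPM, with Hbb-bs, Hbb-bt and Alas2 at 0. Endothelial markers summed to at most 15.4 TPM, and 2 of 5 had a mean of at least 1 TPM. These were Flt1 (9.71 to 13.6 TPM) and Kdr (1.07 to 1.97 TPM), while Cldn5 and Cdh5 were at 0. In a separate table of counts for 7599 genes, the columns named for the 1 h libraries tracked their own TPM tables within 0.1 on the log2 scale for 76.9% of genes. The column named for 8 h replicate 13 instead tracked the TPM table of replicate 14 (77.0% of genes, against 24.5% for its own), the column named for replicate 15 tracked the table of replicate 13 (75.5%, against 39.4%), and the column named for replicate 14 tracked none (at most 35.6%). The 2 kinds of table therefore disagree on which 8 h library is which, and their replicate numbers are given as each table names them.

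TPM is a length-corrected share of the transcripts of a library, so levels can be ordered between genes. Ferritin stood far above the rest, with Ftl1 at 913 to 1516 TPM and Fth1 at 800 to 1094 TPM, ranges that overlapped. Tfrc (114 to 177 TPM) overlapped with Aco1 (94.7 to 136 TPM), and Ireb2 (75.8 to 89.4 TPM) overlapped with Ncoa4 (78.6 to 88.4 TPM), but Aco1 lay above Ireb2 in every library. Slc11a2 (27.5 to 33.9 TPM) and Acsl4 (22.7 to 34.0 TPM) overlapped. Slc7a11 followed at 2.61 to 6.25 TPM, and Slc40a1 was at or near 0. Among the genes with a mean of at least 1 TPM, Ftl1 and Fth1 were at the 99.4th and 99.1th percentile. Slc7a11 was in the lowest part of that order.

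**Figure D1:**
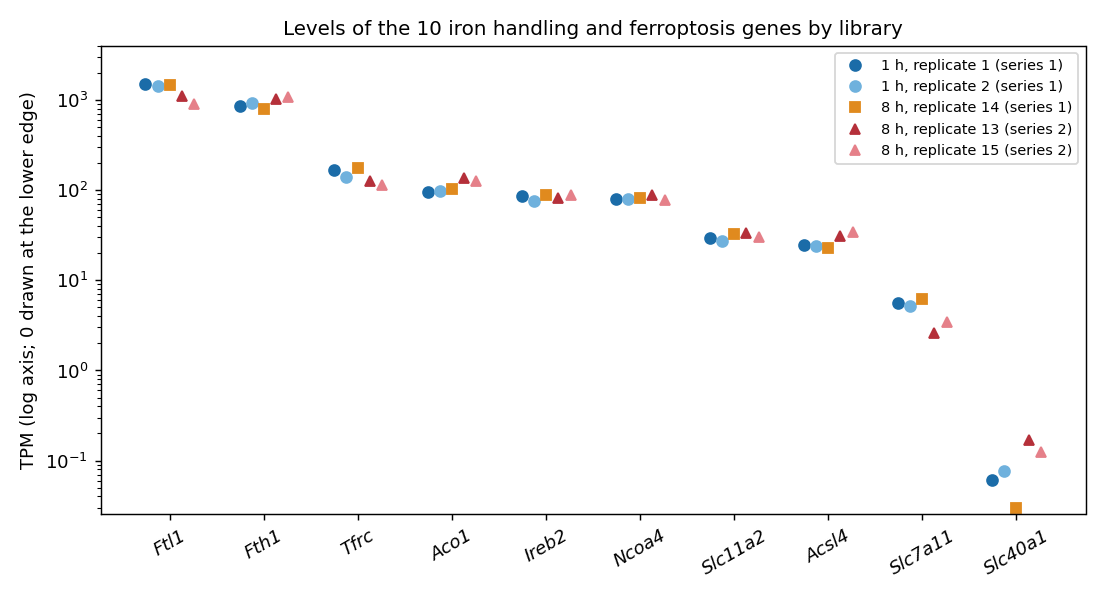
TPM on a log axis for each of the 10 genes, ordered by mean level, with 1 point per library (circles, 1 h; square, 8 h replicate 14; triangles, 8 h replicates 13 and 15). Both ferritin genes lie between 800 and 1516 TPM in all 5 libraries, whereas Slc40a1 does not pass 0.169 TPM and is listed at 0 in 8 h replicate 14.

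To ask whether iron genes moved between 1 h and 8 h, log2(TPM + 1) was fitted with limma over 13870 genes, with calls made where the adjusted p did not exceed 0.05 and the log2 fold change was beyond 1 in either direction. Of the 10 genes, 9 passed the minimum mean of 1 TPM, and 0 of 9 were called. Over all genes, 6 were called (0.0433%), with 0.0144% higher and 0.0288% lower at 8 h. At an unadjusted p under 0.05 the count was again 0 of 9, beside 12.3% of all genes (9.52% higher and 2.82% lower). The median log2 fold change of the 9 was 0.09, against 0.10 over all genes, and 6 of 9 were positive. A sample this small leaves wide errors, and a missed threshold does not show that levels were equal.

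Ferritin heavy chain, Fth1 (chr19:9982703-9985092), is the subunit that oxidises iron for storage. At 1 h its level was 856 and 940 TPM, and at 8 h (replicates 14, 13 and 15) 800, 1040 and 1094 TPM. The 8 h libraries lay on both sides of the 1 h libraries. The log2 fold change, 8 h against 1 h, was 0.11 ± 0.16 (SE, adjusted p = 0.739, limma). Ferritin light chain, Ftl1 (chr7:45457944-45459884), which helps the mineral core to form, stood at 1516 and 1432 TPM in the 1 h libraries, then at 1465, 1123 and 913 TPM in replicates 14, 13 and 15 of the 8 h group. Replicate 14 sat between both 1 h libraries, and the other 8 h libraries were lower. Its log2 fold change was -0.36 ± 0.20 (adjusted p = 0.465, limma). The sum of both subunits varied less, with 2372 TPM in each 1 h library and, in the same order of 8 h replicates, 2265, 2163 and 2007 TPM.

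The ratio of heavy to light chain within a library does not depend on how that library was scaled. Fth1 to Ftl1 was 0.565 and 0.656 at 1 h, and 0.546, 0.926 and 1.20 in 8 h replicates 14, 13 and 15. Replicate 15 was the single library with more Fth1 than Ftl1, and replicate 14 had the lowest ratio of all 5. The difference in the mean log2 ratio, 8 h against 1 h, was 0.48, about as large as the pooled SD of 0.48. It was 0.22 without replicate 15 and 0.79 without replicate 14, and within series 1 it was -0.16. Ferritin-named copies are annotated elsewhere in the genome. Ftl2, annotated as a processed pseudogene, was at 27.3 and 28.2 TPM at 1 h and 26.8, 20.4 and 16.5 TPM at 8 h (replicates 14, 13 and 15), which is 1.80 to 1.97% of Ftl1 in every library. Gm10116 held 3.04 to 3.61% of Ftl1, Fth-ps2 and Gm20746 stayed below 1 TPM, and the Fthl17 genes were listed at 0. The sources used here do not say how reads were divided among these copies, and reads shared with them were not measured, so the level of Ftl1 is uncertain.

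Ncoa4 (chr14:32159865-32179855), the receptor that carries ferritin to the lysosome so that its iron can be released, varied little. At 1 h it was 79.8 and 80.0 TPM, and at 8 h (replicates 14, 13 and 15) 81.4, 88.4 and 78.6 TPM. The 8 h values surrounded the 1 h values, with a log2 fold change of 0.05 ± 0.10 (adjusted p = 0.813, limma).

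**Figure D2:**
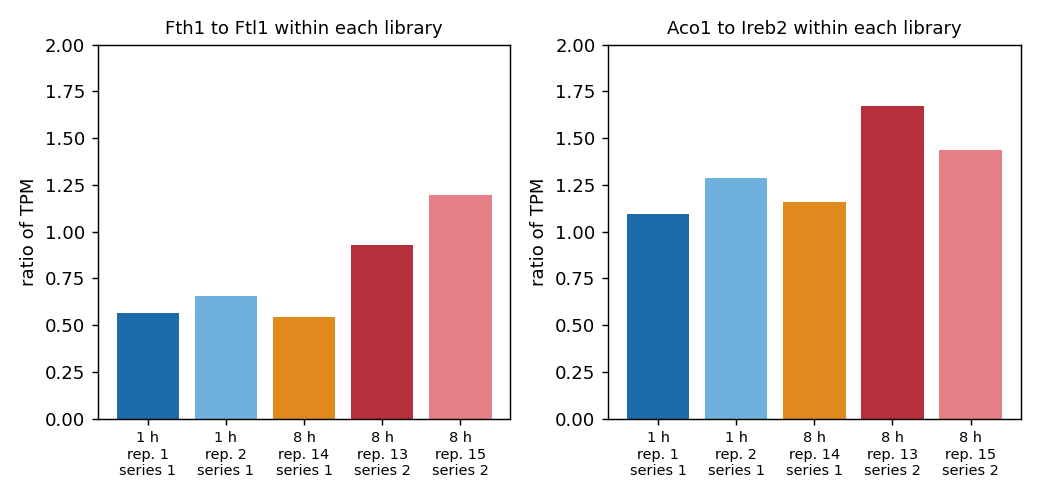
Ratio of TPM within each library for Fth1 to Ftl1 (left) and Aco1 to Ireb2 (right), with 1 bar per library and axes from 0. Fth1 to Ftl1 is 0.546 to 0.656 in the 3 libraries of identifier series 1 and 0.926 and 1.20 in series 2.

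Among the importers, the transferrin receptor Tfrc (chr16:32608920-32632794) was at 167 and 139 TPM at 1 h. In 8 h replicates 14, 13 and 15 it was at 177, 126 and 114 TPM. Replicate 14 was the highest library and the other 8 h replicates were the lowest 2, so the groups overlapped (log2 fold change -0.15 ± 0.21, adjusted p = 0.719, limma). The divalent metal transporter Slc11a2 (chr15:100387898-100425072), which moves iron out of endosomes, was at 29.5 and 27.5 TPM at 1 h. It was at 32.5, 33.9 and 30.6 TPM in 8 h replicates 14, 13 and 15. All 8 h values lay above both 1 h values, but the change was small (log2 fold change 0.18 ± 0.11, adjusted p = 0.482, limma).

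Slc40a1 (chr1:45908068-45926523) encodes ferroportin, the known iron exporter of mammalian cells. At 1 h its level was 0.0604 and 0.0758 TPM, and at 8 h (replicates 14, 13 and 15) 0, 0.169 and 0.125 TPM. It did not pass the minimum level and was not tested. Its mean coverage was at most 0.111 reads per base, so it was near the limit of detection in every library. Tfrc exceeded Slc40a1 2764-fold and 1833-fold at 1 h and 750-fold and 913-fold in 8 h replicates 13 and 15, ratios that rest on very few Slc40a1 reads. Replicate 14 gives no ratio because Slc40a1 is listed at 0 there.

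The iron regulatory proteins are Aco1, a cytosolic aconitase that binds IREs once it loses its iron-sulfur cluster, and Ireb2, which is degraded when iron is plentiful. Aco1 (chr4:40143081-40198338) was at 94.7 and 97.6 TPM at 1 h. It was at 104, 136 and 126 TPM in 8 h replicates 14, 13 and 15, so that every 8 h library lay above the 1 h libraries. This was the smallest p among the 9 genes (log2 fold change 0.33 ± 0.13, unadjusted p = 0.0507, adjusted p = 0.403, limma), and it was not called. Ireb2 (chr9:54863755-54912534) was at 86.4 and 75.8 TPM at 1 h and at 89.4, 81.1 and 87.7 TPM at 8 h in the same order, with overlapping groups (log2 fold change 0.09 ± 0.11, adjusted p = 0.691, limma). The ratio of Aco1 to Ireb2 was 1.10 and 1.29 at 1 h and 1.16, 1.67 and 1.44 at 8 h. Its mean log2 difference of 0.24 was as large as the pooled SD of 0.24. Leaving out 8 h replicate 13 gave 0.12, leaving out replicate 14 gave 0.38, and leaving out replicate 1 of the 1 h group gave 0.13. Within series 1 it was -0.037.

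On the ferroptosis side, Slc7a11 (chr3:49892526-50443614) is the subunit of the cystine-glutamate exchanger that supplies cystine for glutathione. At 1 h it was at 5.57 and 5.18 TPM, and at 8 h (replicates 14, 13 and 15) at 6.25, 2.61 and 3.44 TPM. Replicate 14 was the highest library and the other 8 h libraries were the lowest, which gave a log2 fold change of -0.38 ± 0.31 (adjusted p = 0.564, limma). Acsl4 (chrX:142317993-142390535) showed the opposite order. It was at 24.9 and 23.8 TPM at 1 h and at 22.7, 30.7 and 34.0 TPM at 8 h in the same order, with a log2 fold change of 0.23 ± 0.18 (adjusted p = 0.562, limma). It is X-linked, and the split of Xist and Y-linked genes given above follows the same libraries. The part of that split in its values was not tested.

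Values of 8 h and 1 h did not overlap for 2 of the 9 genes, Slc11a2 and Aco1, both higher at 8 h, against 33.1% of all tested genes. Identifier series separated more of them. Values of series 2 and series 1 did not overlap for 6 of 9 genes, beside 53.3% of all genes. Fth1, Aco1 and Acsl4 were higher in series 2, and Ftl1, Tfrc and Slc7a11 were lower. Over all genes, 39.8% were higher and 13.5% lower. Series, the Y-linked signal, mitochondrial share and proliferation genes moved together, and their part in these values was not tested.

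Without 8 h replicate 14, every 1 h library was of series 1 and every 8 h library of series 2, so that time and series cannot be told apart. In that fit 6 of 9 genes had an unadjusted p under 0.05, beside 37.4% of all genes, and 4 had an adjusted p of at most 0.05, beside 19.9%. These were Aco1 (log2 fold change 0.44, adjusted p = 0.0231), Ftl1 (-0.54, 0.0271), Slc7a11 (-0.67, 0.0426) and Acsl4 (0.39, at the threshold). None passed the fold threshold, beside 4.10% of all genes. With series as a term in the fit, the log2 fold change of Ftl1 was -0.01 and that of Aco1 0.11, while Slc7a11 (0.19), Acsl4 (-0.10), Fth1 (-0.16) and Tfrc (0.22) changed sign. The time effect in that fit rests on replicate 14 against both 1 h libraries, and 0 of 9 genes were called, beside 0.137% of all genes, or had an unadjusted p under 0.05, beside 9.06%.

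**Figure D3:**
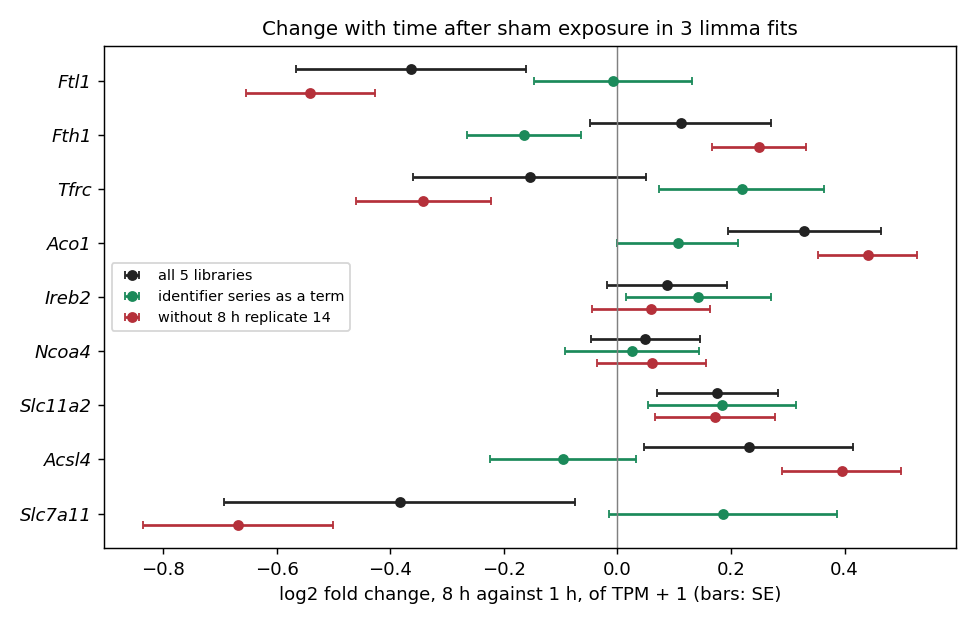
Log2 fold change of TPM + 1 between 8 h and 1 h (x axis; bars, SE) for the 9 tested genes in 3 limma fits, with all 5 libraries (black), with identifier series as a term (green) and without 8 h replicate 14 (red). For Ftl1 the estimate runs from -0.01 with series as a term to -0.54 without replicate 14, while Slc11a2 and Ncoa4 stay close together.

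The count table held 6 of the 10 genes (Tfrc, Slc11a2, Fth1, Aco1, Ireb2 and Slc7a11), with column totals of 13988166 to 18572154. In edgeR's quasi-likelihood test 0 of the 6 were called and 0 had an unadjusted p under 0.05, beside 0.0% and 2.62% of the 7590 genes tested. DESeq2 and voom also called 0 of the 6, beside 0 of all genes with either. At an unadjusted p under 0.05 the count was 0 of 6 with either, beside 227 of 7599 genes with DESeq2 and 178 of 7590 with voom. Log2 fold changes ran from -0.22 ± 0.39 for Slc7a11 to 0.15 ± 0.14 for Aco1. Slc7a11 had 498 and 563 counts in the 1 h columns and 518, 727 and 281 counts in the columns named for 8 h replicates 14, 13 and 15. The low column, named for replicate 15, is the one that tracked the TPM table of replicate 13, which was the lowest of the TPM tables. Tfrc had 6515 and 6491 counts at 1 h and 7166, 9419 and 6213 counts at 8 h in the same order, and its log2 fold change was 0.04 ± 0.21.

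The genes were then set in a wider list of 61 iron and ferroptosis genes in 8 role groups, of which 59 were found and 48 passed the minimum level. None of the 48 was called (0.0433% of all genes), and 5 had an unadjusted p under 0.05, all higher at 8 h, beside 9.52% of all genes in that direction. These were Nfe2l2, the transcription factor NRF2 of the antioxidant response, Fbxl5, the iron-sensing subunit that marks Ireb2 for degradation, Slc25a37, the mitochondrial iron importer mitoferrin 1, Steap2, a metalloreductase, and Slc39a14, an importer of iron not bound to transferrin. Their adjusted p-values were 0.240 to 0.403 (limma). The median log2 fold change of the list was 0.15, against 0.10 for all genes, and 40 of 48 were positive. With series as a term the median was -0.0087, against 0.01 for all genes. In that fit 6 of the 48 had an unadjusted p under 0.05 (limma), beside 9.06% of all genes. Of the 6, 3 were higher and 3 lower, beside 691 and 566 of 13870 genes. Under median-ratio scaling the median was 0.04, against -0.0042.

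Nfe2l2 was at 95.3 and 86.6 TPM in the 1 h libraries, then 132, 141 and 141 TPM in replicates 14, 13 and 15 of the 8 h group, with replicate 14 close to the others (log2 fold change 0.60 ± 0.10). Fbxl5 was at 23.2 and 20.9 TPM at 1 h and at 28.3, 30.1 and 32.0 TPM at 8 h (0.43 ± 0.12). Slc25a37 was at 10.8 and 8.76 TPM and then 12.3, 15.6 and 14.3 TPM (0.48 ± 0.16). In these genes the TPM of the 8 h libraries lay above that of the 1 h libraries in both identifier series. This held for 12 of the 48 genes, beside 23.7% of all genes. None of the 48 was lower at 8 h without overlap, beside 9.43%. In the count table Nfe2l2 had 2327 and 2525 counts at 1 h. The columns named for 8 h replicates 14, 13 and 15 held 2405, 4139 and 4198 (log2 fold change 0.35 ± 0.17, unadjusted p = 0.0758, edgeR). The column named for replicate 14, which tracked no TPM table, thus did not lie above 1 h. For Slc39a14 that column held 733 counts, against 759 and 879 at 1 h. It was higher for Slc25a37 (759, against 708 and 729) and Steap2 (252, against 171 and 183). Heme oxygenase 1 (Hmox1) had 2707 counts in that column and 732 to 1004 in the other columns. In the TPM tables Hmox1 was at 41.3 to 51.7 TPM in all libraries. The cause of this difference was not tested.

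None of the 5 tested storage and release genes was among the 12 genes higher in TPM in every 8 h library, beside 23.7% of all genes. The iron chaperones Pcbp1 (323 to 372 TPM) and Pcbp2 (330 to 389 TPM) had log2 fold changes of 0.03 and 0.13. Of the uptake genes, Steap2 was at 2.98 and 2.39 TPM at 1 h and 3.62, 6.42 and 7.08 TPM at 8 h, Slc39a14 was at 18.7 and 20.9 TPM and then 23.6, 24.5 and 24.3 TPM, and the endolysosomal channel Mcoln1 was at 36.4 to 43.8 TPM with a log2 fold change of 0.01. Heme oxygenase 2 (Hmox2), which breaks heme down, was at 39.6 to 59.6 TPM, and the heme transporter Slc48a1 at 48.6 to 56.1 TPM, with log2 fold changes of 0.27 and 0.06. Of the iron-sulfur cluster genes, Glrx5 (100 to 128 TPM) and Cisd1 (90.8 to 100.6 TPM) had log2 fold changes of -0.0015 and 0.0086. Gpx4, the peroxidase that reduces lipid peroxides, was at 295 and 312 TPM at 1 h and 265, 323 and 272 TPM at 8 h (log2 fold change -0.09 ± 0.12). Slc3a2, the partner chain of Slc7a11, was at 94.1 to 144 TPM, far above Slc7a11 itself. The mitochondrial channels Vdac2 (232 to 274 TPM) and Vdac3 (315 to 360 TPM) had log2 fold changes of 0.11 and 0.07.

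Values did not overlap between series for both tested export genes and for 5 of 8 tested uptake genes, transferrin among them, beside 53.3% of all genes. Heph, a membrane ferroxidase, was at 0.112, 0.140 and 0.134 TPM in series 1 and at 3.78 and 4.66 TPM in series 2. Its mean of 1.76 TPM passed the minimum level only through series 2. Its place among the tested genes, its separation by series and its call below are therefore not independent. The ferroxidase ceruloplasmin (Cp) was at 10.4 to 13.2 TPM in series 1 and 30.9 and 32.8 TPM in series 2. Transferrin (Trf) was at 14.2 to 18.8 TPM in series 1 and 36.3 and 46.4 TPM in series 2. In the count table Heph had 5 and 10 counts at 1 h. The columns named for 8 h replicates 14, 13 and 15 held 19, 10 and 174. Cp had 432 and 476 counts, then 777, 420 and 1313 in the same order. Trf had 18 to 55 counts in all columns, with 28 and 18 in the 1 h columns. Slc11a2, at 27.5 to 33.9 TPM, had 1139 to 1594 counts. Counts are not corrected for length, but the count table does not bear out the TPM level of Trf. The cause was not tested. Which 8 h column belongs to which library is in doubt, as given above. In all, 35 of the 48 genes did not overlap between series, beside 53.3% of all genes. Of the 48, 30 were higher in series 2, beside 39.8% of all genes, and 5 were lower, beside 13.5%. Without 8 h replicate 14, 4 were called, Heph (log2 fold change 2.21), Cp (1.24), Trf (1.16) and Steap2 (1.08), all higher, beside 2.97% of all genes in that direction.

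**Figure D4:**
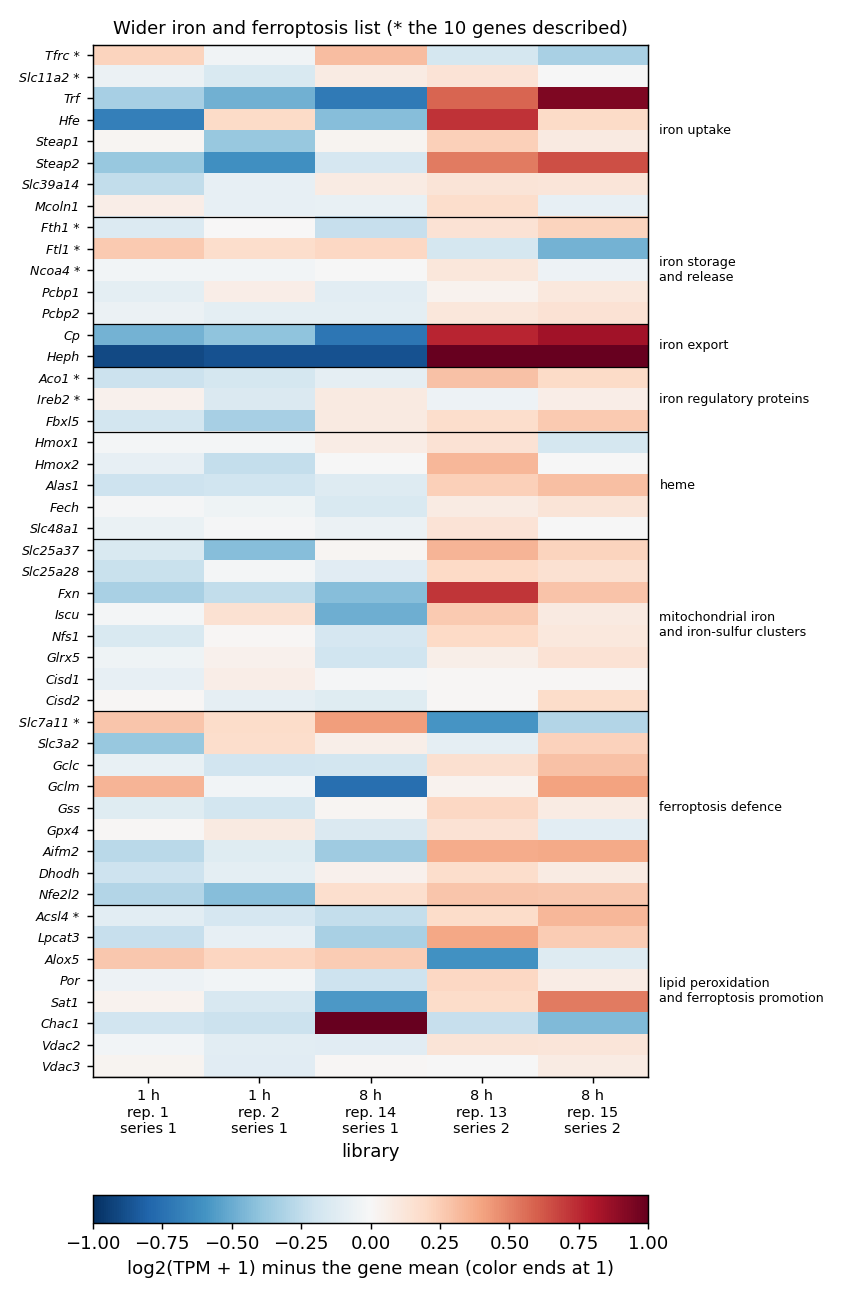
Log2(TPM + 1) minus the gene's mean (color, ending at 1 in either direction) for the 48 tested genes of the wider list, in rows by role group, with libraries in columns. Most rows change color between 8 h replicate 14 (series 1) and 8 h replicate 13 (series 2), and Heph, Cp and Trf show wide steps.

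Of 9479 genes with a mean of at least 10 TPM, the closest in pattern over the 5 libraries were found for Slc7a11 and Ftl1, the members with the largest absolute changes. Likeness was the root mean square difference of centred log2(TPM + 1). Ppfibp1 (0.0453), Esd (0.05003) and Tub (0.0604) were nearest to Slc7a11. Dyrk3 (0.0297), BC022687 (0.0355) and the ferritin pseudogene Ftl2 (0.0439) were nearest to Ftl1.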

How the data were processed

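Poly-A libraries (stranded TruSeq, paired Illumina reads, bcl2fastq 2.19.1.403) were mapped to GRCm38 with the nf-core/rnaseq pipeline (STAR, featureCounts), per the methods. The authors deposited a transcript abundance table per library with coverage, FPKM and TPM for 46078 genes, and a filtered table of raw counts for 7599 genes. The sources used here name neither the tool behind the abundance tables nor the filter of the count table. No column was left unassigned and no row lacked a gene.

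TPM was summed per gene identifier. Genes whose mean TPM reached 1 were tested with limma 3.58.1 (trend) on log2(TPM + 1) in R 4.3.3, which understates changes of low genes. Counts were tested with edgeR 4.0.16 (quasi-likelihood, TMM), with DESeq2 1.42.0 and voom as alternatives. P-values were adjusted by Benjamini-Hochberg over all genes tested. The scripts were tested on simulated data. Depth in the TPM tables was read from coverage per FPKM, which was 5.57 to 7.18; counts of reads are not held there.

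The 10 genes and all lists were chosen with earlier results of these data known. Other genes were named by rule: in each role group the 2 with the highest mean TPM, any called and any with an unadjusted p under 0.05, plus ferritin-named genes, the 3 nearest genes of 2 members, and sex-linked genes. Heph, Cp and Trf fall under the level rule. Hmox1 was named outside the rule, after its counts were seen. Alternatives were another pseudocount, no filter, median-ratio scaling, identifier series, and each library left out.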

Additional observations from a re-analysis of the deposited data

How the results depend on the processing

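The count of called genes among the tested members (9 on TPM, 10 without the filter, 6 on counts) stayed at 0 under all 11 alternatives on TPM and all 11 on counts. Nearly all alternatives kept the fold threshold of 1. The largest change of a member in any of them was -0.67 (Slc7a11, without 8 h replicate 14), so this count could hardly move. It is no measure of stability. For the wider list, calls ran from 0 to 4 when each library was left out. The 4 came without 8 h replicate 14, beside 568 of 13870 genes, in a fit where time and identifier series cannot be told apart. The list count was 0 in the other 10 alternatives. Of the log2 fold changes of single genes on TPM, 78 kept their direction and 12 reversed. The fit with series as a term and the fit with series 1 alone give the same estimates, so these were counted under both. With series as a term, and with series 1 alone, Tfrc was 0.22, Slc7a11 0.19, Fth1 -0.16 and Acsl4 -0.10. Under median-ratio scaling, which moved the median of all genes from 0.10 to -0.0042, Fth1 was -0.0032, Ncoa4 -0.065 and Ireb2 -0.027. Ireb2 ran from -0.0060 to 0.18 when each library was left out, and was negative without 1 h replicate 2. On counts 53 kept their direction and 7 reversed. Tfrc ran from -0.081 to 0.23, Fth1 from -0.068 to 0.28 and Slc7a11 from -0.49 to 0.11 when each column was left out. With series as a term on counts, Aco1 was -0.013, Slc7a11 0.0036 and Fth1 0.47 (unadjusted p = 0.0330, adjusted p = 0.803, edgeR), but series is there taken from the column names, which are in doubt for the 8 h columns. No reversed value was called, and the cause was not tested. The log2 difference of Fth1 to Ftl1 ran from 0.22 to 0.79 and that of Aco1 to Ireb2 from 0.12 to 0.38 when each library was left out. Within series 1, an alternative chosen after seeing the data, they were -0.16 and -0.037, the opposite direction. No paired analysis was possible because the 1 h and 8 h groups share no replicate number. With 2 and 3 libraries the errors are wide, and Slc40a1 lies too low to compare at this depth.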
